A study of Mus musculus with 2 samples.

Results

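The genes described here are 36 genes of DNA replication, chosen by name for what their products do and not by a rule on measured values. Earlier results of these data were known when they were chosen. All 36 were found by symbol among the 27998 genes listed for both libraries. They fall into 5 roles: 3 genes of the switch from G1 to S phase, 10 genes of origin licensing and the replicative helicase, 12 genes of fork polymerases and processing, 5 genes of nucleotide supply and 6 genes of chromatin and methylation copying. The values come from lung fibroblasts of C57BL/6 mice, an inbred strain, that were wild type and cultured from dissociated whole lung to passage 3. The stimulated library came from cells treated for 14 days, and the control library from cells of the same lung kept for the same time in the same medium with vehicle. As stimuli the protocol names rosiglitazone at 10 µM, which activates PPARG, SB4315442 at 1 µM and rhBMP4, a recombinant human growth factor, at 4 µM, each alone or mixed. Which of these the stimulated library received is not in the labels. The protocol also gives 10% FBS and 1% ITS+3, a supplement of insulin, transferrin and selenium. Each group is 1 droplet single-cell library of transcript 3′ ends, in which each captured molecule carries a unique molecular identifier (UMI), so no test across samples was possible.

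Before S phase, the licensing factors CDC6 and CDT1 load the MCM2 to MCM7 helicase ring onto origins. E2F transcription factors, held back by the retinoblastoma protein until cyclin-dependent kinases act, switch on most genes of this set as cells leave G1. At the fork the helicase joins the GINS complex, polymerases copy both strands around the sliding clamp PCNA, and chromatin assembly and DNA methylation follow behind. Dividing cells need these products and resting fibroblasts keep them low, which is why their mRNAs are used to mark cells in S phase.

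The promoters of these genes are known in many cases to carry E2F sites, and their sequences are shown for that reason. RefSeq (build GRCm38.p6) gave a window of 250 bases before to 50 bases after the start for 30 of the 36 members. Mcm7, Lig1, Dnmt1, Uhrf1 and Fen1 had more than 1, and the first listed was used for each gene. The windows of Dut, Cdc6, E2f1 and Mcm7 lie inside the gene as GENCODE M21 places it, so the start differs between sources. Ccne2, Mcm4, Gins1, Gins2, Rfc2 and Pole had no entry. An E2F word was defined as TTTCCCGC, TTTCGCGC, TTTGCCGC or TTTGGCGC on either strand, and 11 of the 30 member promoters held at least 1, against 2.32% of 27018 promoters of all genes in that table. With the first T of each word dropped, which gives shorter words that lie inside the longer ones, the counts were 19 of 30 members and 9.69% of all promoters. CCAAT on either strand was in 17 of 30 members and 37.9% of all promoters, and TTTGAA, a core found in promoters of genes of G2 and mitosis, in 3 of 30 and 18.1%. These matches describe letters in the windows and are not shown binding sites.

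Promoters are given 5′ to 3′ for the members with the largest folds between libraries (Pold1 and Clspn, while Gins1 has no entry) and the highest levels (Dut, Tk1 and Rrm1). They lie on GRCm38.p6, Pold1 at chr7:44548766-44549065 (minus strand), Clspn at chr4:126556730-126557029 (plus strand), Dut at chr2:125247265-125247564 (plus strand), Tk1 at chr11:117825965-117826264 (minus strand) and Rrm1 at chr7:102441445-102441744 (plus strand). Capitals mark the long and short E2F words. Pold1 and Clspn each held 1 long word, 40 and 22 bases into the gene by the RefSeq start. Rrm1 held only a short word, and Dut and Tk1 held none in these windows.
Pold1: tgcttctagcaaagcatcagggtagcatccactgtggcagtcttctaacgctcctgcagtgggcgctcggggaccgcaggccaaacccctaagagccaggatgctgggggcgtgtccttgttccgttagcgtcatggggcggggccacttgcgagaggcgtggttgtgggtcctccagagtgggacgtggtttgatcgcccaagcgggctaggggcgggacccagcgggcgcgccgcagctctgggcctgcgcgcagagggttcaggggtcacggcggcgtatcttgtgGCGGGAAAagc
Clspn: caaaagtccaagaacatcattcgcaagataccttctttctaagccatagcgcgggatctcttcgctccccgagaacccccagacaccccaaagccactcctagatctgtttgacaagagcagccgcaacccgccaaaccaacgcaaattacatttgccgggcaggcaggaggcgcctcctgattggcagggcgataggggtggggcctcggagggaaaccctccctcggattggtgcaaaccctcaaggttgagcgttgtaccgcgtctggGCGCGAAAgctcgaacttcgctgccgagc
Dut: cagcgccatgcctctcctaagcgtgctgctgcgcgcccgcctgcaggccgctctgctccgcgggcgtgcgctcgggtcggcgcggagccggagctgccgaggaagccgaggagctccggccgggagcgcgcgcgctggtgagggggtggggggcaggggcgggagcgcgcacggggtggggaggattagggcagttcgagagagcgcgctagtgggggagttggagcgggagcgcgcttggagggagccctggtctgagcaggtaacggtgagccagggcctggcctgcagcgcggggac
Tk1: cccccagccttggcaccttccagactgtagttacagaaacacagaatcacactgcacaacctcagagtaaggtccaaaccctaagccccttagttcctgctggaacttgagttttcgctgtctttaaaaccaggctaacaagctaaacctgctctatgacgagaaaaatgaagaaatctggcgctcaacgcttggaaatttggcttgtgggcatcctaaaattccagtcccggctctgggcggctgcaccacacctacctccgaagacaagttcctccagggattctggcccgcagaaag
Rrm1: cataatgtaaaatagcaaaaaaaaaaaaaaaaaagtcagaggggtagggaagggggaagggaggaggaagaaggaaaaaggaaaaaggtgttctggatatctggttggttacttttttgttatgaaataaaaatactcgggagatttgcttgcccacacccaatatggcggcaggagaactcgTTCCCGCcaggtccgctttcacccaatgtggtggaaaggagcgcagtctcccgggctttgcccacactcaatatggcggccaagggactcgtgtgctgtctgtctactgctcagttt

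The other 9 members with a long E2F word are shown as the first such word with 10 bases on either side, and capitals again mark long words. They include 4 of the 6 MCM helicase genes. Their windows lie on GRCm38.p6, Cdc6 at chr11:98908003-98908030 (plus strand), Cdt1 at chr8:122568037-122568064 (plus strand), Mcm3 at chr1:20820276-20820303 (minus strand), Mcm5 at chr8:75109346-75109373 (plus strand), Mcm6 at chr1:128359798-128359825 (minus strand), Mcm7 at chr5:138172031-138172058 (minus strand), Rfc3 at chr5:151651201-151651228 (minus strand), Pola1 at chrX:93632276-93632303 (minus strand) and Hells at chr19:38930918-38930945 (plus strand).
Cdc6: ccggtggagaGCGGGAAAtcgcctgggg
Cdt1: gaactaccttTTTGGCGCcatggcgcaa
Mcm3: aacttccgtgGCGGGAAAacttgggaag
Mcm5: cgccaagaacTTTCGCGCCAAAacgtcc
Mcm6: ggcgtatgctTTTGGCGCGAAAagtgcg
Mcm7: atttcgaaccGCGGGAAAcagggtgtcc
Rfc3: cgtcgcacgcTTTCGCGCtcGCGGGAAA
Pola1: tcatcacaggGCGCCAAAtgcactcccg
Hells: accaccgggtTTTCCCGCgaaagagaag

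After filters, 7468 stimulated and 4703 control cells were kept, with 117193148 stimulated and 88573140 control UMIs in all and a median of 15379.5 UMIs per stimulated and 19634 per control cell. A cell needed 500 genes or more, and no more than 20% mitochondrial UMIs. The libraries had 53 barcode sequences in common. Fibroblast markers summed to 5699 CPM (UMIs per 1000000 UMIs of the library) in the stimulated library and 11877 CPM in the control library, with 11 of 12 markers at 5 CPM or more in the stimulated and 12 of 12 in the control library. Macrophage markers summed to 14.3 CPM in the stimulated and 780 CPM in the control library, with 1 of 12 markers at 5 CPM or more in the stimulated and 11 of 12 in the control library; Adgre1 was at 0 in the stimulated library. Cells with at least 10 UMIs of 11 macrophage markers (Lyz2 left out) numbered 5 in the stimulated library and 153 in the control library. Mesothelial markers summed to 29.2 CPM in the stimulated and 30.4 CPM in the control library, endothelial markers to 12.4 CPM in the stimulated and 12.1 CPM in the control library, and epithelial and lymphocyte markers to under 2 CPM in both libraries. All intervals are 95% intervals that cover counting error only.

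DNA replication genes were higher in stimulated fibroblasts for most members, by moderate folds. Together the 36 genes made up 913 CPM in the stimulated library and 691 CPM in the control library, a fold of 1.32 (1.31 to 1.33). Of the 33 members that averaged 5 CPM or more over both libraries, 12 were at least 1.5-fold higher, against 7.75% of the 8787 genes at that level. None was at least 1.5-fold lower, against 12% of genes. The median log2 fold was 0.51 over these members and -0.06 over all genes at that level. Scaling by TMM, which added 0.10 to every log2 fold, gave 20 members past 1.5-fold and none lower, against 10.2% and 9.41% of all genes. Among the 14 members that averaged at least 20 CPM, 3 passed 1.5-fold, against 5.97% of all genes at that level, and the median log2 fold was 0.30. Cdc6, Gins1 and Pola1 were below 5 CPM and are described but not counted. Over all 36 members 34 had a fold above 1. Values of single genes below are levels in CPM and folds of the stimulated over the control library. In bulk sums of this kind more cells with a transcript and more transcript per cell cannot be told apart. Counts per cell are described further on, but shares of cells past a UMI limit depend on both as well.

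**Figure D1:**
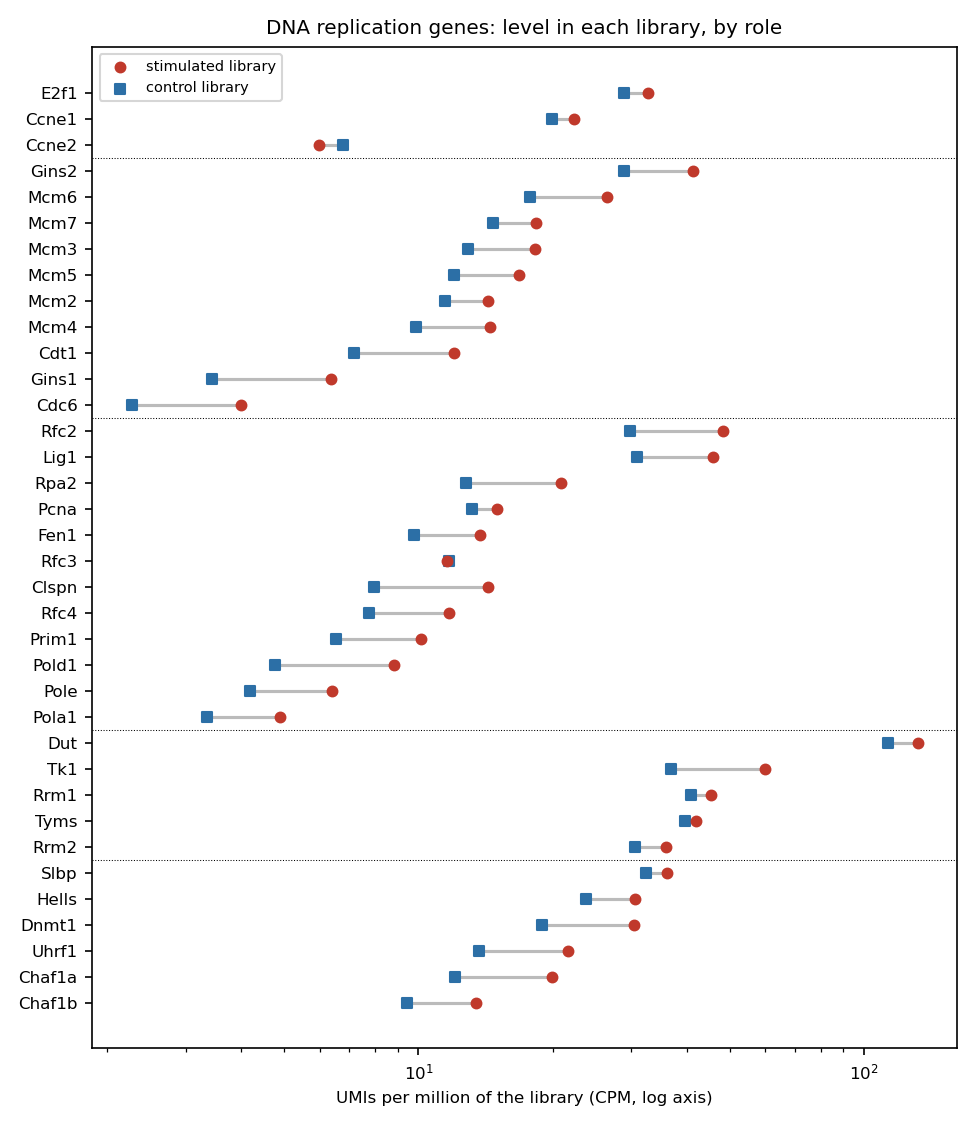
Level of each of the 36 DNA replication genes (CPM, log axis) in the stimulated library (red circles) and the control library (blue squares), in blocks by role from the G1 to S switch at the top to chromatin and methylation copying at the bottom. The stimulated value lies to the right of the control value for all genes but Ccne2 and Rfc3.

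The genes that start S phase differed least. The E2F and cyclin E genes together were at 61.1 CPM in the stimulated and 55.6 CPM in the control library, a fold of 1.10 (1.06 to 1.14). E2f1, the transcription factor gene that gives the E2F family its name, was at 32.8 CPM in stimulated and 28.9 CPM in control cells, a fold of 1.13 (1.08 to 1.19). Ccne1, which encodes the cyclin that drives CDK2 at the entry into S phase, was at 22.3 CPM in stimulated and 19.97 CPM in control cells. Its sister gene Ccne2 was at 5.99 CPM in stimulated and 6.77 CPM in control cells, and its fold of 0.884 (0.792 to 0.988) was the lowest of the 36. No member of this role passed 1.5-fold in either direction, against 7.75% of all genes higher and 12% lower.

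Licensing and helicase genes were higher as a group, at 172 CPM in the stimulated and 121 CPM in the control library, a fold of 1.43 (1.40 to 1.46). Of the 8 that averaged 5 CPM or more, 1 passed 1.5-fold, which is not far from the share of 7.75% of all genes at that level. It was Cdt1, the loader of the MCM ring, at 11.997 CPM in stimulated and 7.16 CPM in control cells, a fold of 1.68 (1.52 to 1.84). Cdt1 overlaps Gm20388 on the same strand, and reads of the pair cannot be told apart where they overlap. Cdc6, its partner at the origin, was at 4.00 CPM in stimulated and 2.27 CPM in control cells. The 6 subunits of the MCM2 to MCM7 ring lay close together, with folds between 1.248 and 1.49. Mcm6 had the highest fold of the ring genes, at 26.6 CPM in stimulated and 17.8 CPM in control cells, 1.49-fold higher (1.40 to 1.59). Mcm4 was at 14.5 CPM in stimulated and 9.87 CPM in control cells, a fold of 1.47. Mcm3 was at 18.2 CPM in stimulated and 12.9 CPM in control cells, a fold of 1.41. Mcm5 followed with 16.8 CPM in stimulated and 11.99 CPM in control cells, a fold of 1.40. The ring genes with the lowest folds were Mcm2, at 14.3 CPM in stimulated and 11.5 CPM in control cells (1.249-fold), and Mcm7, at 18.4 CPM in stimulated and 14.7 CPM in control cells (1.248-fold). Gins2, a subunit of the GINS complex that activates the helicase, was at 41.3 CPM in stimulated and 28.9 CPM in control cells, a fold of 1.43. Gins1, another GINS subunit, had the largest fold of the 36, at 6.37 CPM in stimulated and 3.43 CPM in control cells, 1.86-fold higher (1.62 to 2.13) but on a mean just under 5 CPM.

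Fork genes were the role with the largest fold, at 212 CPM in the stimulated and 143 CPM in the control library, 1.48-fold higher (1.45 to 1.52). Of the 11 that averaged 5 CPM or more, 7 passed 1.5-fold, against 7.75% of all genes at that level. Pold1, the catalytic subunit gene of polymerase delta, was at 8.80 CPM in stimulated and 4.75 CPM in control cells, 1.85-fold higher (1.65 to 2.08). Clspn, which encodes the checkpoint mediator claspin, was at 14.3 CPM in stimulated and 7.95 CPM in control cells, 1.80-fold higher (1.65 to 1.97). Rpa2, a subunit of the protein that coats single-stranded DNA, was at 20.9 CPM in stimulated and 12.8 CPM in control cells, 1.64-fold higher. The other polymerase genes had smaller folds than Pold1. Pole, the catalytic subunit of polymerase epsilon, was at 6.39 CPM in stimulated and 4.18 CPM in control cells, 1.53-fold higher. Prim1, which encodes the primase subunit, was at 10.1 CPM in stimulated and 6.51 CPM in control cells, 1.55-fold higher. Pola1, the catalytic subunit of polymerase alpha, was at 4.88 CPM in stimulated and 3.35 CPM in control cells, with 13.6% of its 3′ end windows matching other genes. The clamp and its loader had unequal folds. The loader subunit gene Rfc2 was at 48.4 CPM in stimulated and 29.8 CPM in control cells, 1.62-fold higher (1.55 to 1.70). Rfc4 was at 11.7 CPM in stimulated and 7.73 CPM in control cells, 1.52-fold higher. Rfc3 was at 11.6 CPM in stimulated and 11.7 CPM in control cells, a fold of 0.989 (0.912 to 1.07). Its fold turned to above 1 under 5 of the 10 other settings that were tried, some of which leave folds as they were. Pcna itself, the clamp gene, was at 15.04 CPM in stimulated and 13.2 CPM in control cells, a fold of 1.14 (1.06 to 1.23), and 29.5% of its 3′ end windows match a Pcna pseudogene listed in the files. Of the genes that finish the lagging strand, Lig1, a DNA ligase gene, was at 45.8 CPM in stimulated and 30.9 CPM in control cells, a fold of 1.48, and the flap endonuclease gene Fen1 was at 13.7 CPM in stimulated and 9.78 CPM in control cells, a fold of 1.41.

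Nucleotide supply genes were the most abundant role in UMIs and differed little, apart from Tk1. The 5 genes were at 315 CPM in the stimulated and 262 CPM in the control library, a fold of 1.21 (1.19 to 1.23). Tk1, the thymidine kinase of the salvage route, was at 59.9 CPM in stimulated and 36.9 CPM in control cells, 1.62-fold higher (1.56 to 1.69). The other 4 had folds from 1.06 to 1.17. Dut, which encodes the enzyme that destroys dUTP, was the most abundant member, at 132 CPM in stimulated and 113 CPM in control cells. Rrm1 and Rrm2 encode the large and small subunits of ribonucleotide reductase. Rrm1 was at 45.4 CPM in stimulated and 41.0 CPM in control cells, and Rrm2 at 35.9 CPM in stimulated and 30.7 CPM in control cells. Tyms, the gene of thymidylate synthase in the de novo route, was at 41.9 CPM in stimulated and 39.7 CPM in control cells, a fold of 1.06 (1.01 to 1.10). The salvage and de novo thymidine genes thus stood apart in fold, with counting intervals that did not overlap.

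Genes that copy chromatin and DNA methylation were at 152 CPM in the stimulated and 110 CPM in the control library, a fold of 1.38 (1.35 to 1.42). Of these, 3 of 6 passed 1.5-fold, against 7.75% of all genes that averaged 5 CPM or more. Chaf1a, the large subunit gene of chromatin assembly factor 1, was at 19.9 CPM in stimulated and 12.1 CPM in control cells, 1.65-fold higher. Dnmt1, the maintenance DNA methyltransferase gene, was at 30.5 CPM in stimulated and 18.9 CPM in control cells, 1.61-fold higher (1.52 to 1.71). Uhrf1, which encodes the protein that guides DNMT1 to newly copied DNA, was at 21.7 CPM in stimulated and 13.7 CPM in control cells, 1.59-fold higher (1.48 to 1.70). The methylation pair thus had like folds. Chaf1b, the partner of Chaf1a, was at 13.5 CPM in stimulated and 9.43 CPM in control cells, a fold of 1.43. Hells, a chromatin remodeller gene, was at 30.6 CPM in stimulated and 23.7 CPM in control cells, a fold of 1.29. Slbp, whose protein binds the stem-loop of histone mRNAs, was at 36.2 CPM in stimulated and 32.5 CPM in control cells, a fold of 1.12.

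A larger share of stimulated than of control cells had 2 or more UMIs of the set. No difference was detectable in the share with 15 or more. Such shares rise with transcript per cell as well as with the number of cells that carry it. They do not tell these apart. Each cell was thinned to 5000 UMIs, which left 6708 stimulated and 4077 control cells and left out 760 shallower stimulated and 626 shallower control cells. Of these, 74.4% of stimulated cells (73.4 to 75.5%) and 58.7% of control cells (57.2 to 60.2%) had at least 2 UMIs of the set. Without thinning the shares were 92.5% of stimulated cells (6906 cells) and 85.3% of control cells (4014 cells). At 5 UMIs or more the shares were 37.1% of stimulated cells (35.9 to 38.3%) and 23.8% of control cells (22.5 to 25.1%). At 10 or more they were 11.2% of stimulated cells (10.5 to 11.97%) and 8.54% of control cells (7.70 to 9.44%). At 15 or more they were 2.12% of stimulated cells (1.79 to 2.49%) and 2.16% of control cells (1.73 to 2.65%). The median was 3 UMIs per stimulated cell and 2 per control cell, the 99th percentile was 17 in both libraries, and the highest cell had 26 in the stimulated and 34 in the control library. No cell type here is known to lack these genes. The macrophage-marked control cells, at a median depth of 11740.5 UMIs against 20860 for all control cells of at least 5000 UMIs, had 2 or more set UMIs in 68.1% (59.6 to 75.8%) of 138 cells. The part of free RNA in these shares was not tested.

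**Figure D2:**
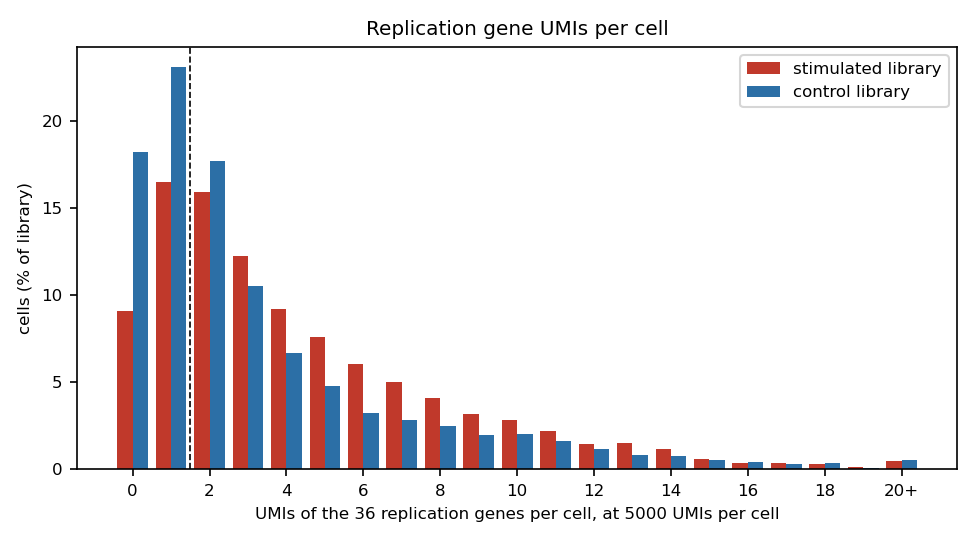
Share of cells in each library (percent, vertical axis) by the number of UMIs of the 36 replication genes per cell at 5000 UMIs (horizontal axis, with 20 and above in 1 bin), for stimulated (red) and control (blue) cells; the dashed line marks the limit of 2 UMIs. Control cells are more frequent at 0 to 2 UMIs, stimulated cells from 3 to 14, and the bars are close to each other from 15 upwards.

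Genes outside the set followed it within cells. The 12 G2 and M genes, which include Mki67 and Top2a and hold no member of the set, averaged 0.734 UMIs per stimulated cell and 0.442 per control cell at 5000 UMIs where no set UMI was seen. With 5 to 9 set UMIs they averaged 5.36 UMIs per stimulated cell and 5.41 per control cell, and with 15 or more they averaged 5.04 UMIs per stimulated and 6.25 per control cell. Cdkn1a, the gene of the p21 inhibitor of cyclin-dependent kinases, showed no steady gradient across the bins of set UMIs. Its mean lay between 1.89 and 2.29 UMIs per stimulated cell and between 1.80 and 2.84 per control cell. Over the upper bins it rose in both libraries. From 5 to 9 set UMIs to 15 or more it went from 1.90 to 2.29 in stimulated and from 1.80 to 2.84 in control cells. Ccnd1, the cyclin D1 gene, was between 1.24 and 1.37 UMIs per stimulated cell and between 0.195 and 0.415 per control cell. In control cells Ccnd1 was lowest at 1 set UMI and highest at 10 to 14, and was at 0.261 with 15 or more. Depth moved with the bins: the median before thinning was 15238 UMIs in stimulated cells with no set UMI and 17795.5 in those with 15 or more, and in control cells 19966.5 with none, 22250.5 with 5 to 9, 22999 with 10 to 14 and 20512.5 with 15 or more. Its part in the pattern was not tested.

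Cells were then split by the 12 G2 and M genes, which uses no replication gene. G2/M-high cells, with at least 5 UMIs of those genes at 5000 UMIs, made up 26.2% of stimulated cells (1760 cells) and 15.8% of control cells (644 cells). Inside this class the set was lower in the stimulated library, at 1378 CPM against 1532 CPM in control cells, a fold of 0.900 (0.886 to 0.914) or -0.15 on the log2 scale. G2 and M genes were lower there as well, at 1730 CPM in stimulated and 1841 CPM in control cells, so this class was not matched for them. The median log2 fold in this class was -0.11 over members and -0.10 over all genes that averaged 5 CPM or more, so genes at large were lower there by a like amount. In all other cells the set was higher, at 718 CPM in stimulated and 512 CPM in control cells, a fold of 1.40 (1.39 to 1.42). Cells with no UMI of the G2 and M genes still differed, with 460 CPM in 2006 stimulated cells and 351 CPM in 2080 control cells, a fold of 1.31 (1.28 to 1.34). Of 26 members at 5 CPM or more there, 11 were at least 1.5-fold higher, against 7.51% of all genes at that level, and none lower, against 13.2%. G2 and M genes were themselves at 285 CPM in stimulated and 170 CPM in control cells of the other class, so that class was not matched for them. Before thinning, the cells with no such UMI at 5000 UMIs also held them, at 93.2 CPM in stimulated and 61.8 CPM in control cells, and were not matched either. G2/M-high cells supplied 29.3% of the UMIs of stimulated cells and 17.6% of those of control cells. Putting the control levels of both classes together in the stimulated proportions gave 811 CPM, 1.17 times the control value of 692 CPM in these cells, and putting the stimulated levels together in the control proportions gave 835 CPM, 1.21 times it; the observed fold in these cells was 1.32.

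The members were then counted gene by gene in each class. Among other cells 17 of 32 members that averaged 5 CPM or more were at least 1.5-fold higher, against 7.94% of all genes at that level, and none was lower, against 12.3%; all 36 members had a fold above 1. Among G2/M-high cells none of 35 was higher, against 6.12% of genes, and 1 was lower, against 11.6%; 11 of the 35 had a fold above 1, against 37.7% of all genes at that level, so the members lay close to all genes in this class. Ccne2 was that gene, at 6.501 CPM in stimulated and 11.9 CPM in control G2/M-high cells. Ccne1 stood next to it, at 24.1 CPM in stimulated and 35.8 CPM in control G2/M-high cells, a fold of 0.674. Clspn shows the contrast: in other cells it was at 10.2 CPM in stimulated and 4.71 CPM in control cells, 2.18-fold higher, against a fold of 1.04 among G2/M-high cells, where it was at 24.3 CPM in stimulated and 23.4 CPM in control cells. Pold1 was at 7.06 CPM in stimulated and 3.17 CPM in control cells of the other class, 2.22-fold higher. Tk1 was at 127 CPM in stimulated and 129 CPM in control G2/M-high cells, but at 31.9 CPM in stimulated and 17.3 CPM in control cells of the other class. By role, nucleotide supply genes had a fold of 0.838 (0.818 to 0.860) among G2/M-high cells and 1.247 (1.22 to 1.27) among other cells, and fork genes 0.997 (0.965 to 1.03) among G2/M-high cells and 1.58 (1.54 to 1.63) among other cells.

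**Figure D3:**
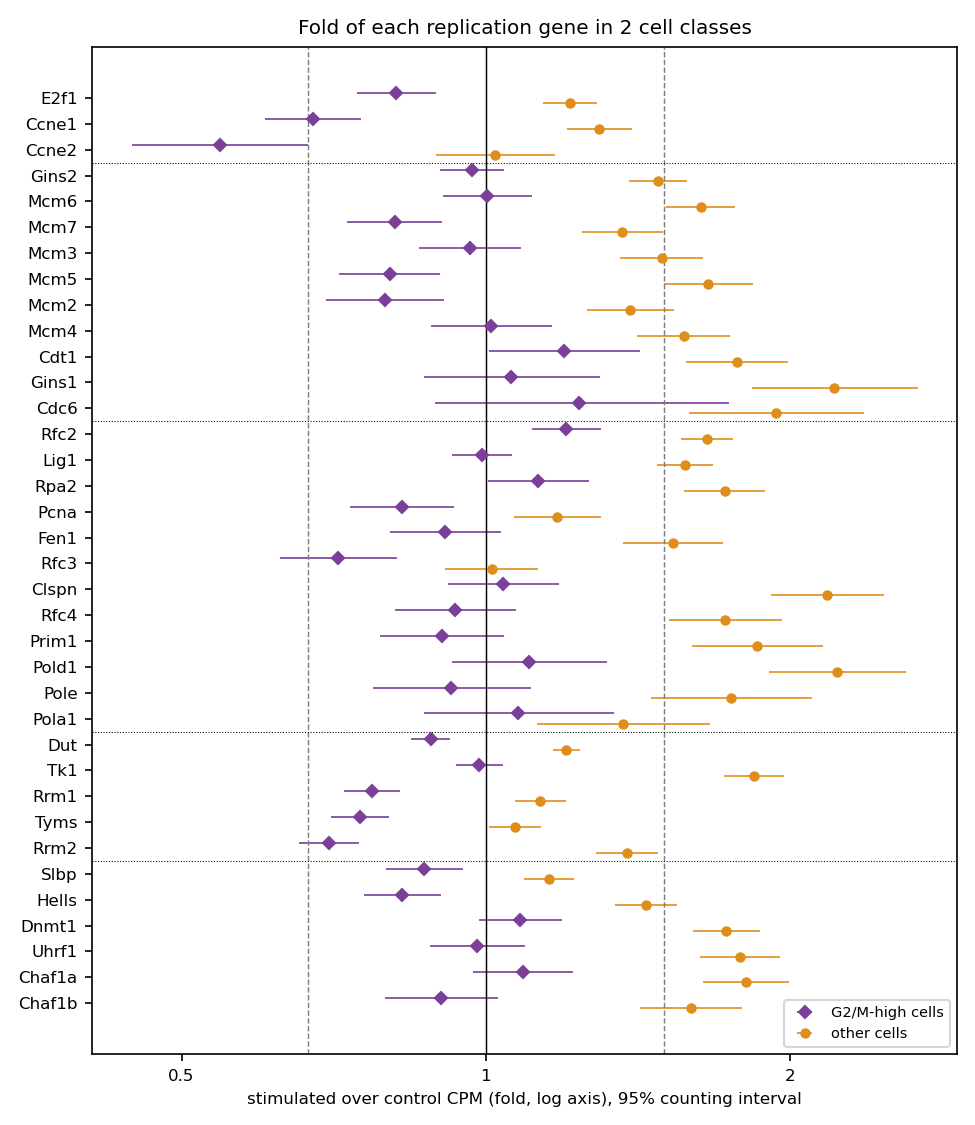
Fold of each replication gene, stimulated over control CPM on a log axis with 95% counting intervals, among G2/M-high cells (purple diamonds) and other cells (orange circles); the solid line is a fold of 1 and the dashed lines are 1.5-fold either way. Most diamonds lie at or left of 1, and all circles lie right of it.

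Cells with 2 or more UMIs of the set at 5000 UMIs were also compared as they stand. Because the set chose these cells, the values are a description. The set was at 1104 CPM in 4993 stimulated cells and 985 CPM in 2393 control cells, a fold of 1.12. Of 35 members that averaged 5 CPM or more, 1 was at least 1.5-fold higher, Pold1 at 10.5 CPM in stimulated and 6.70 CPM in control cells, and none was lower; the shares over all genes were 6.33% and 11.5%. Members of the G1 to S switch were at 72.9 CPM in stimulated and 76.9 CPM in control cells of this kind, and fork genes at 258 CPM in stimulated and 206 CPM in control cells.

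The members differed in which cycling cells held most of them, and the ends of the order were alike in both libraries. For each member, G2/M-high cells were set against replication-high cells, which had at least 5 UMIs of the other 35 members and under 2 UMIs of the G2 and M genes. Cdc6, Cdt1 and Ccne2 were the members with the lowest ratios. Cdc6 was at 4.11 CPM in G2/M-high and 11.8 CPM in replication-high stimulated cells, a ratio of 0.347 (0.268 to 0.451), and its ratio in the control library was 0.321. Cdt1, whose protein is destroyed once replication begins, had ratios of 0.591 in stimulated and 0.468 in control cells. Ccne2 had ratios of 0.457 in stimulated and 0.499 in control cells. At the other end, Tk1 was at 127 CPM in G2/M-high and 47.7 CPM in replication-high stimulated cells, a ratio of 2.66 (2.41 to 2.95), and its ratio in control cells was 2.87. Rrm1 had ratios of 1.79 in stimulated and 1.86 in control cells, Prim1 1.69 in stimulated and 2.21 in control cells, and Rfc4 1.61 in stimulated and 2.63 in control cells. In all, 19 members were above 1 in both libraries and 14 were below 1 in both. Where a ratio of 1 falls depends on the limits that chose both classes, so this split is a description. For some members, such as Rfc3, Mcm4 and Mcm6, the intervals covered 1 in both libraries. Each ratio is taken within a library, and both classes hold cells of different depth.

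**Figure D4:**
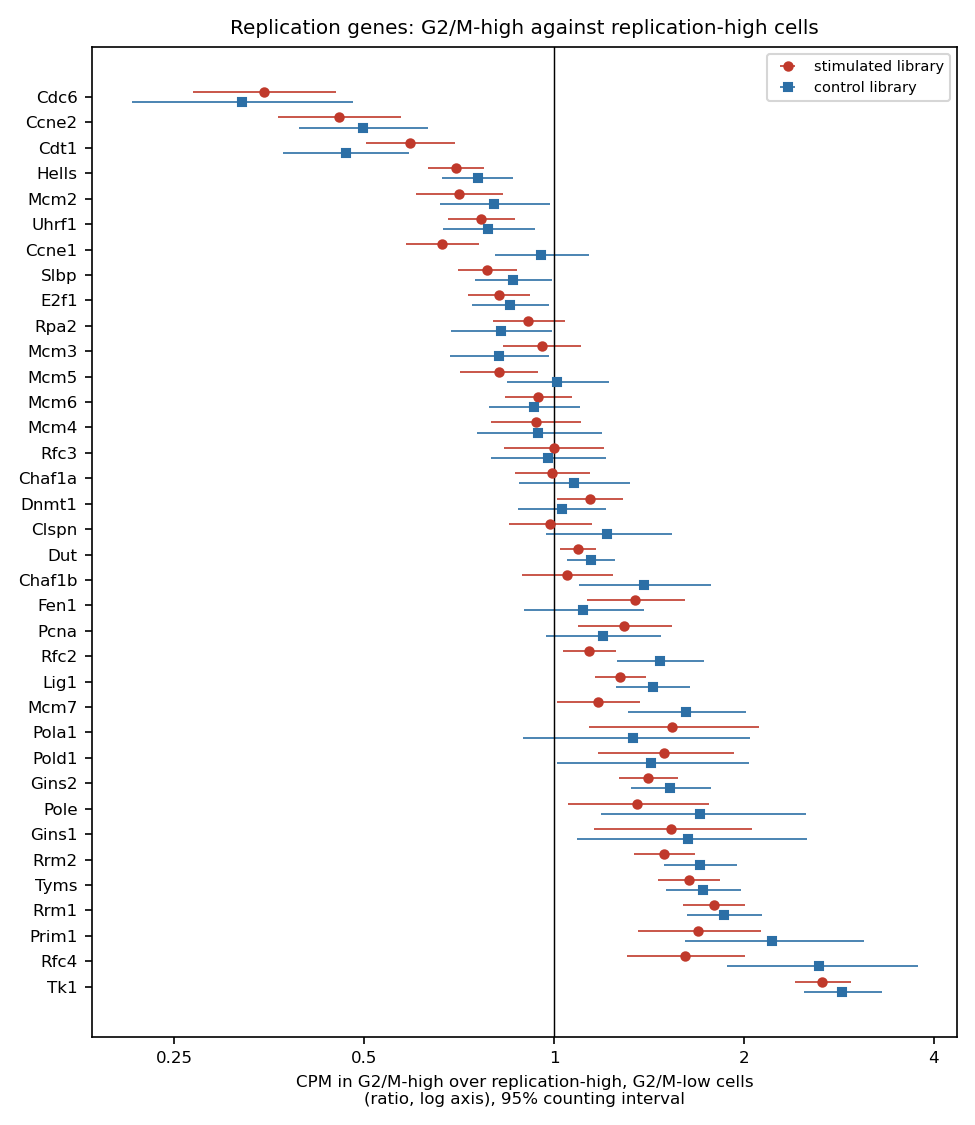
Ratio of each replication gene's CPM in G2/M-high cells over its CPM in replication-high, G2/M-low cells (log axis, 95% counting intervals), in the stimulated library (red circles) and the control library (blue squares), ordered by the mean of both. Cdc6, Ccne2 and Cdt1 are lowest and Tk1 is highest in both libraries.

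Members differed in how low their level was in cells with few UMIs of the others. Cells with under 2 UMIs of the other members and under 2 of the G2 and M genes served as the low class, so low levels there follow in part from the choice of cells, which are not shown to be outside the cycle. Clspn was at 24.7 CPM in replication-high and 1.79 CPM in low stimulated cells, a ratio of 13.8, and at 19.2 CPM in replication-high and 0.388 CPM (12 UMIs) in low control cells. Ccne2 had ratios of 15.9 in stimulated and 33.6 in control cells on the same measure. In contrast, Dut was at 157 CPM in replication-high and 81.5 CPM in low stimulated cells, a ratio of 1.93, and its ratio in control cells was 2.36. The median ratio over the 36 members was 4.30 in stimulated and 6.34 in control cells. All 36 were above 1 in both libraries, a direction that the choice of cells by the other members favours.

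Other replication genes that averaged 5 CPM or more had a lower median fold than the members at that level, a difference that was not tested. Of 45 further replication genes 30 had a mean of at least 5 CPM, and their median log2 fold was 0.33. Of these, 4 were at least 1.5-fold higher (Topbp1, Timeless, Pold3 and Rnaseh2a) and 1 was lower (Orc4), against 7.75% and 12% of all genes. Genes of the list below 5 CPM are not in these counts. Among them, Cdc7, Wdhd1, Ticrr, Chtf18, Dscc1, Gins3, Mcm10, Atad5, Pole2 and Orc1 had folds from 1.53 to 2.28. The rest, Orc3, Orc5, Cdc45, Recql4 and Dna2, had folds from 1.07 to 1.18. Timeless, which encodes a fork protection protein, was at 8.09 CPM in stimulated and 3.48 CPM in control cells, 2.33-fold higher (2.04 to 2.65). The most abundant were Pold4, a small subunit of polymerase delta, at 133 CPM in stimulated and 165 CPM in control cells, Pole4 at 84.6 CPM in stimulated and 121 CPM in control cells, and the RNase H2 subunit gene Rnaseh2c at 81.5 CPM in stimulated and 67.6 CPM in control cells. Pold4 and Pole4 had folds of 0.806 and 0.701, which did not pass 1.5-fold in the lower direction. The other accessory subunit genes of these polymerases had folds above 1, with 1.40 for Pold2, 1.56 for Pold3, 1.63 for Pole2 (below 5 CPM) and 1.29 for Pole3. Gmnn, the gene of geminin that blocks CDT1, was at 38.9 CPM in stimulated and 29.8 CPM in control cells, a fold of 1.31. Of 20 further nucleotide genes 18 had a mean of at least 5 CPM, 4 were at least 1.5-fold higher and none lower, against the same shares of all genes. Dctd, the dCMP deaminase gene, was at 21.6 CPM in stimulated and 11.5 CPM in control cells, 1.89-fold higher (1.75 to 2.03). Dtymk, the thymidylate kinase gene, was at 187 CPM in stimulated and 136 CPM in control cells, Impdh2 at 156 CPM in stimulated and 105 CPM in control cells and Dctpp1 at 81.2 CPM in stimulated and 67.3 CPM in control cells. Orc4, Topbp1, Pold2, Pold3, Pole2, Pole3, Rnaseh2a and Gmnn were picked out after their values were seen.

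Genes that control the entry into S phase differed in both directions, in shares not far from those of all genes. Of 29 such genes 22 had a mean of at least 5 CPM, 3 were at least 1.5-fold higher (Ccnd1, Cdkn2a and Myc), 4 were lower (Rb1, Ccnd2, Cdk6 and Cdkn1b), against 7.75% and 12% of all genes, and their median log2 fold was 0.27. Genes of the D-type cyclins, which activate CDK4 and CDK6 in G1, did not share a direction. Ccnd1 was at 270 CPM in stimulated and 49.5 CPM in control cells, 5.46-fold higher (5.29 to 5.63), and Ccnd2 was at 288 CPM in stimulated and 539 CPM in control cells, a fold of 0.534 (0.527 to 0.542). Ccnd3 was at 171 CPM in stimulated and 132 CPM in control cells, with a fold between 1.27 and 1.33. Their kinases differed as well, with Cdk4 at 325 CPM in stimulated and 242 CPM in control cells and Cdk6 at 18.95 CPM in stimulated and 49.4 CPM in control cells. Rb1, the retinoblastoma gene, was at 4.97 CPM in stimulated and 9.20 CPM in control cells, a fold of 0.541 (0.485 to 0.602), and Cdkn1b, the p27 inhibitor gene, at 9.03 CPM in stimulated and 14.6 CPM in control cells. Cdkn1a was at 403 CPM in stimulated and 399 CPM in control cells. Rb1, Ccnd3, Cdk6, Cdkn1b, Cdkn2a and Myc were picked out after their values were seen. Of the 12 G2 and M genes 6 were at least 1.5-fold higher and none lower, against 7.75% and 12% of all genes. Top2a was at 68.3 CPM in stimulated and 43.0 CPM in control cells and Mki67 at 32.9 CPM in stimulated and 19.3 CPM in control cells.

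**Figure D5:**
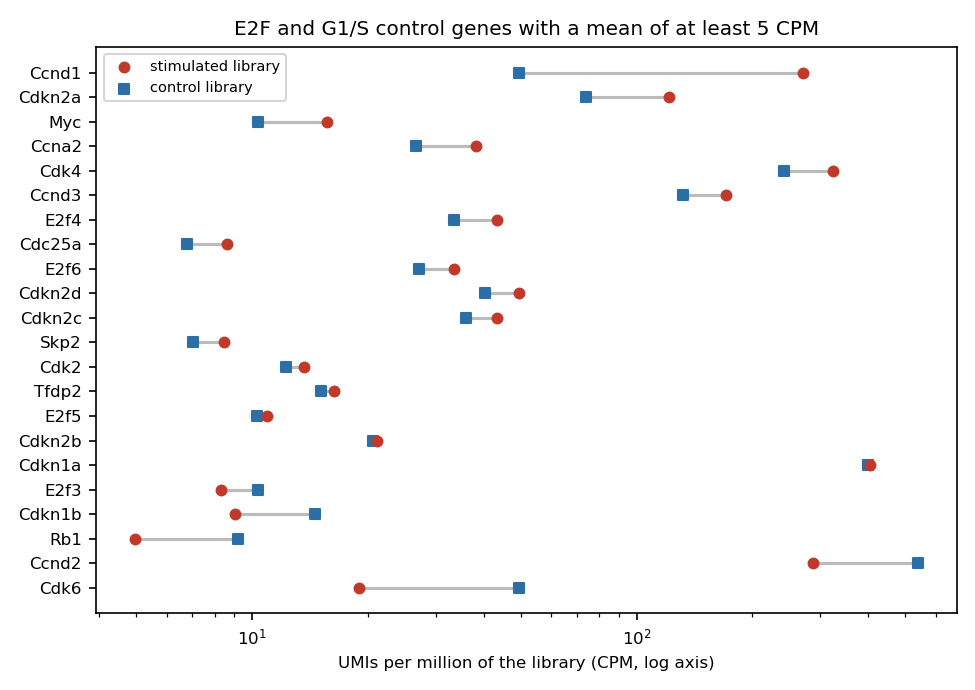
Level of the 22 E2F and G1/S control genes that averaged 5 CPM or more (CPM, log axis) in the stimulated library (red circles) and the control library (blue squares), ordered by fold from the highest at the top. Ccnd1 at the top and Cdk6, Ccnd2 and Rb1 at the bottom are farthest apart.

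Across cells, the genes whose level went most with the sum of the members were also cycle genes. Over 4639 genes at 20 CPM or more on average, members left out, 2810417H13Rik was first, with Pearson's r of 0.64 over 7468 stimulated cells and 0.66 over 4703 control cells. GENCODE M21 lists its identifier as Pclaf, which encodes a PCNA-binding protein. Hmgb2 (0.53 in stimulated and 0.56 in control cells), H2afz (0.49 and 0.53), Stmn1 (0.47 and 0.51), Cks1b (0.48 and 0.47), Birc5 (0.46 and 0.53), Dek (0.45 and 0.50), Hist1h2ap (0.56 and 0.45), Top2a (0.44 and 0.52) and Tipin (0.45 and 0.44) followed. The level of Hist1h2ap is uncertain, since 100% of its 3′ end windows match other genes. Single members had r between 0.13 and 0.44 with the sum of the others in stimulated cells and between 0.19 and 0.54 in control cells, highest for Lig1 in the stimulated and Tk1 in the control library. Cells of a library share its depth and preparation, so these values describe the libraries.

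Clusters found without the members and the fixed cell cycle lists held different levels of the set. Cycle genes outside those lists, such as Hist1h2ap and 2810417H13Rik, were not taken out. Differences in the set between clusters can thus follow in part from the clustering. Of 14 clusters only 1 had 50 or more cells of both libraries, so most values are within a library. In that cluster, with 71 stimulated and 284 control cells, the set was at 463 CPM in stimulated and 555 CPM in control cells, a fold of 0.835 (0.711 to 0.976), against the direction over all cells. Its median depth was 5586 UMIs in stimulated and 5201 UMIs in control cells. Over 7 stimulated clusters the set lay between 463 and 1299 CPM, and over 8 control clusters between 391 and 901 CPM. The highest stimulated cluster, led by Hist1h2ap, Top2a and Mki67, held 54.4% of the set UMIs of that library, with G2 and M genes at 1175 CPM. A stimulated cluster led by Dio3, Il33 and Islr was at 510 CPM, with G2 and M genes at 201 CPM. A stimulated cluster with Clu and Prl2c2 among its leading genes was at 1132 CPM. The highest control cluster was macrophage-like, with 12 of 12 macrophage markers seen in at least 25% of its cells; its 149 cells were at 901 CPM and held 2.54% of the set UMIs of the control library. The control cluster led by Lum was at 583 CPM, and the lowest, at 391 CPM, was a shallow cluster with a median of 1881 UMIs per cell. A shallow stimulated cluster of 662 cells, with a median of 1758 UMIs per cell, was at 995 CPM. G2 and M genes were at 885 CPM there. Without the macrophage-marked cells the fold of the whole set was 1.33 and 14 of 33 members passed 1.5-fold. With them 12 of 33 did, against 7.75% of all genes. The share of all genes without the macrophage-marked cells is not given here, so the change in this count cannot be read against genes at large.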

How the data were processed

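Cultured mouse lung fibroblasts were measured as 1 stimulated and 1 control droplet library. The authors deposited raw UMI counts as gene by barcode matrices. Cell Ranger 3.0.2 wrote them per the file headers; Cell Ranger 1.3.1 and Seurat 3.0.0 stand in the submitters' processing notes. The build, annotation and barcode filter were not given in the sources used here.

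A barcode was kept if it had 500 genes or more and no more than 20% of its UMIs in 13 mitochondrial genes. The gene limit left out 212 stimulated and 269 control barcodes, and the mitochondrial limit 18 stimulated and 44 control barcodes. No doublet caller was run, and doublets remain. UMIs were summed per library and divided by the library total (CPM). Folds carry exact conditional-Poisson intervals and shares exact binomial intervals. Captured 3′ ends were not scaled by transcript length. Cells were thinned without replacement to 5000 UMIs. Clusters came from scanpy 1.11.5 (2000 variable genes without the members and the replication, E2F and G2 and M lists, 30 components, 15 neighbours, Leiden resolution 0.5). Shared 3′ ends were 90-base windows of the last 400 bases of GENCODE M21 transcripts, called shared if minimap2 2.31 placed them on a further listed gene with 2 mismatches or fewer; all 36 members were found there. Code was tested on simulated data. TMM factors came from edgeR 4.0.16.

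The members, lists and limits were chosen with earlier results of these data known. All 36 members were described; other genes were named as the 3 most abundant and the largest fold of each list, the 10 genes most correlated with the set, and Mki67, Top2a, Cdkn1a and Ccnd1, or as stated in the text.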

Additional observations from a re-analysis of the deposited data

How the results depend on the processing

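With 1 library per group nothing measures the spread between cultures, and intervals cover counting error only. No paired analysis was possible because each group is 1 library and the labels carry no replicate numbers. The count of members at least 1.5-fold higher was 12, and 3 of 14 at a mean of at least 20 CPM, where 5.97% of all genes were higher. With TMM scaling it was 20. It was 21 at a limit of 25% higher and 0 at a limit of 2-fold. The shares of all genes past these limits are not given here, so these counts cannot be read against genes at large. Under the other 8 settings the count of higher members lay between 12 and 16, and no setting gave a member that was lower. With TMM 10.2% of all genes were higher and 9.41% lower, against 7.75% and 12% with library totals. A median of ratios, where 16 of 34 members passed, gave 9.14% of all genes higher and 10.3% lower. Asking only for 3 UMIs in either library, where 14 of 36 members passed, gave 15.7% higher and 23.3% lower. The median log2 fold of members was 0.30 at 20 CPM and 0.62 with TMM. The fold of the whole set was 1.42 with TMM, 1.38 with a median of ratios, 1.36 with totals that leave out mitochondrial and ribosomal protein genes, 1.36 without the 5% of cells with the most UMIs and 1.36 as a mean of per-cell CPM. The share of cells with set UMIs was higher in the stimulated library by 15.7 percentage points, by 12.2 at 2000 UMIs, by 10.0 at 10000 UMIs, by 7.12 without thinning, and by 9.11, 13.3 and 2.66 at limits of 1, 5 and 10 UMIs. The fold among G2/M-high cells was 0.959 and 0.835 at limits of 2 and 10 UMIs, and among other cells 1.35 at 2 UMIs. None of the 360 recomputed member folds took a member past 1.5-fold to below it. Settings that change only the level a gene must reach, such as 20 CPM, leave folds as they were, so those values could not differ. The side of 1 changed only for Rfc3, under 5 settings. The causes were not tested.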
